A study of Mus musculus with 2 samples.

Results

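The peaks described here are those that an ETS1 and an ETS2 chromatin immunoprecipitation gave outside chromosomes 1 to 19, X and Y. They were chosen by sequence name alone: the mitochondrial genome (chrM), contigs with Un_ in their name, and contigs with _random in their name. The rule took 455 of 140851 deposited peaks, 242 of 77295 in the ETS1 list (0.313%, 95% Wilson interval 0.276 to 0.355) and 213 of 63556 in the ETS2 list (0.335%, 0.293 to 0.383). Of the 455, 25 lay on chrM, 395 on unplaced and 35 on unlocalised contigs. An unplaced contig belongs to no known chromosome. An unlocalised contig is assigned to a chromosome but has no position on it.

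The mitochondrial genome is a small circular DNA present in many copies per cell. It encodes core subunits of the respiratory chain and ATP synthase, and the rRNAs and tRNAs of the mitochondrial ribosome. It carries no histones, and its noncoding control region holds the promoters from which long transcripts start. Unplaced and unlocalised contigs are pieces that a genome assembly could not join to a chromosome, often because they are rich in repeats. ETS1 and ETS2 are related nuclear transcription factors that bind a GGAA core and act in endothelial cells downstream of growth factor signalling.

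Cultured aortic endothelial cells of wild-type mice were used for both groups, grown at 37 degrees and 5% CO2 in medium with 20% serum, an endothelial growth supplement and heparin. The groups were 1 library precipitated with 10 µg of ETS1 antibody and 1 precipitated with 10 µg of ETS2 antibody, each from the same number of cells. Per the file headers, the libraries held 143778022 and 134607908 tags, and 1 threshold of 30 tags per peak applied to the whole genome, without a control library. No replicates, input library or IgG library were analysed, so the values below describe these lists, are not shown to be binding sites, and carry counting error only. Coordinates are 1-based mm10. Tag counts of single peaks, contig sequences and markers of the cell type were not analysed here.

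Both antibodies gave peaks along the mitochondrial genome, 13 for ETS1 and 12 for ETS2. Of these, 10 in each list overlapped a peak of the other by at least 1 bp. This was 76.9% (49.7 to 91.8) of the ETS1 and 83.3% (55.2 to 95.3) of the ETS2 mitochondrial peaks. Over all deposited peaks, 16.1% of the ETS1 and 19.6% of the ETS2 list overlapped the other. However, every mitochondrial peak lay in the first 1% of the rows of its file, where 41.2% and 87.4% of all peaks overlapped. Chromosome peaks overlapped in 90.1% of cases in the first 200 ETS1 rows and in 98.0% in the first 100 ETS2 rows. The mitochondrial shares were below these 2 values. The intervals of the mitochondrial shares are wide because they rest on 13 and 12 peaks. ETS1 peaks covered 14.7% and ETS2 peaks 14.3% of the stretch from the first mitochondrial peak to the last of either list (positions 575 to 16213). How often peaks this dense would meet by position alone was not tested.

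The rRNA genes mt-Rnr1 and mt-Rnr2, which encode the small and the large mitochondrial ribosomal RNA, both held peaks in both lists. In mt-Rnr1 an ETS1 peak at chrM:603-779 and an ETS2 peak at chrM:575-761 overlapped by 159 bp. In mt-Rnr2, ETS1 peaks at chrM:1880-2056 and chrM:2355-2531 each met an ETS2 peak, at chrM:1869-2055 and chrM:2287-2473. An additional ETS2 peak at chrM:1266-1452 in mt-Rnr2 lay 609 bp from the nearest ETS1 peak, centre to centre. So the lists shared 3 sites over the rRNA genes and differed at 1.

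Of the 7 genes for complex I, the NADH dehydrogenase of the respiratory chain, 4 had peak centres in both lists. ND1 held ETS1 chrM:3173-3349 and ETS2 chrM:3134-3320, which overlapped by 148 bp. ND2 held ETS1 chrM:4045-4221 and ETS2 chrM:3988-4174, overlapping by 130 bp. In ND4, the peaks at chrM:11081-11257 and chrM:11086-11272 overlapped by 172 bp, with centres 10 bp apart. Centres were 34 bp apart in ND1 and 52 bp in ND2, beside a median of 56 bp for overlapping pairs on chromosomes. In ND1, ND2 and ND4 the overlap was thus at least 130 bp, unlike in ND5. ND5, the longest gene of the molecule at 1824 bp, held 3 ETS1 peaks (chrM:12077-12253, chrM:12775-12951 and chrM:13319-13495) and 1 ETS2 peak (chrM:12234-12420). Only the first ETS1 peak touched the ETS2 peak, by 20 bp. The neighbouring ETS2 peak, chrM:13607-13793, was centred in ND6, which had no ETS1 peak and is encoded on the opposite strand to the other protein-coding genes. ND3 and ND4L had no peak of either list.

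Among the genes of the later respiratory complexes, CYTB and COX1 each held 1 peak per list. CYTB encodes cytochrome b of complex III, and its peaks at chrM:14231-14407 (ETS1) and chrM:14295-14481 (ETS2) overlapped by 113 bp. COX1 encodes the catalytic subunit of cytochrome c oxidase (complex IV), with peaks at chrM:5828-6004 and chrM:5817-6003 that overlapped by 176 bp. COX2 and COX3, which encode the other mitochondrial subunits of complex IV, and the ATP synthase genes ATP6 and ATP8 held none. All 4 lie in a stretch without any peak, where it was not tested whether reads could be placed. In all, peak centres lay in 9 of 37 mitochondrial genes in the ETS1 list and in 9 in the ETS2 list, 8 of them the same genes.

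Each list had 1 peak wholly beyond the last annotated gene, where the control region lies. The ETS1 peak at chrM:16037-16213 began 614 bp past the end of TrnP, and the ETS2 peak at chrM:15996-16182 began 573 bp past it. They overlapped by 146 bp. A further ETS1 peak at chrM:15308-15484 overlapped TrnT and TrnP, tRNA genes at the edge of the control region. This peak extended past the end of TrnP, at position 15422. It was the mitochondrial peak placed earliest in the ETS1 file (place 56), and the nearest ETS2 peak was centred 693 bp away. Of the 22 tRNA genes, these were the only 2 touched by an ETS1 peak, and 0 were touched by an ETS2 peak. No tRNA gene held a peak centre in both lists.

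**Figure D1:**
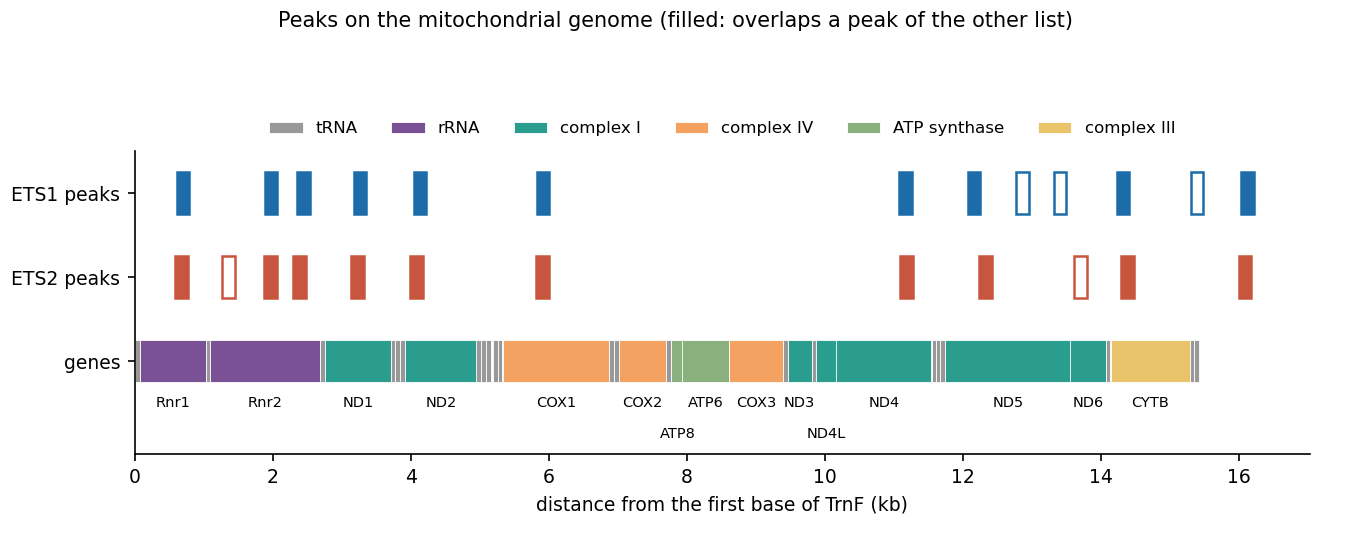
Mitochondrial genes (bottom row, coloured by role) and peaks of each list (upper rows, drawn to scale), with the distance from the first base of TrnF in kb on the horizontal axis. Filled peaks overlap a peak of the other list and open peaks do not; neither list has a peak over the 5076 bp that separate the peaks in COX1 and ND4.

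The map of the mitochondrial peaks shows 1 long interval without peaks in both lists. It ran from position 6005 to 11080, 5076 bp, and contained 11 whole genes, namely TrnS1, TrnD, COX2, TrnK, ATP8, ATP6, COX3, TrnG, ND3, TrnR and ND4L. Mouse nuclear DNA holds copies of mitochondrial sequence, including a long one on chromosome 1, and reads that fit both may be placed on the nuclear copy or dropped. Whether this applies to the interval was not tested, so a lack of peaks there cannot be told apart from a lack of reads placed there. Centres on either side of it were 5253 bp (ETS1) and 5269 bp (ETS2) apart. The next largest distances between neighbouring centres were 1783 and 1829 bp. Medians were 892 bp over 12 distances for ETS1 and 854 bp over 11 for ETS2. The minimum distance between peaks given in the headers was 354 and 372 bp, although some neighbouring peaks on chromosomes were closer, down to 310 bp (ETS1) and 275 bp (ETS2). Distances here do not cross the point where the circular molecule is opened.

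Every mitochondrial peak stood near the top of its file. The 13 ETS1 peaks held places 56 to 164 of 77295, and the 12 ETS2 peaks held places 12 to 36 of 63556. Thus all 13 and all 12 were in the first 1% of the rows, which holds 0.999% of either list. The earliest ETS2 peaks were those of ND2 (place 12), CYTB (place 14) and ND4 (place 15). In the ETS1 list the peak over TrnT and TrnP came first (56). The peak wholly past the last gene (94) and those of ND4 (104) and ND2 (105) followed. The COX1 peak came last of the mitochondrial peaks in both lists, at 164 and 36. Over the 10 overlapping pairs, Spearman's rho between the 2 sets of places was 0.41, given as a description of sites that share a molecule and a library.

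The unplaced contig JH584304 held more of these peaks than any other sequence. There were 93 peaks in each list, 38.4% of the 242 ETS1 and 43.7% of the 213 ETS2 peaks. Of the 93, 89 in each list overlapped a peak of the other list (95.7%, 89.5 to 98.3), beside 16.1% and 19.6% over all deposited peaks. Within the first 1% of the rows, 62 of 65 ETS1 peaks (95.4%) and 84 of 88 ETS2 peaks (95.5%) of the contig overlapped. Of all peaks in those rows, 41.2% and 87.4% did, so the ETS2 share was not far from that of its stretch. ETS1 peaks covered 15.4% and ETS2 peaks 16.3% of the stretch from the first peak to the last of either list (positions 272 to 106928). The centres of overlapping peaks were a median of 5 bp apart and at most 115 bp, and 12 of the 89 pairs had the same centre. In 32 pairs the ETS2 centre lay at the higher coordinate and in 45 at the lower.

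Along JH584304, peaks were packed in the first 70 kb and sparser beyond. That stretch held 81 peaks in each list, with median distances of 788.5 bp (ETS1) and 787 bp (ETS2) between neighbouring centres. Beyond it, 12 peaks in each list lay a median of 2234 and 2229 bp apart, and all 12 overlapped between the lists. The largest distance between neighbours on the contig was 6293 bp for ETS1 and 6303 bp for ETS2. In its first 100 kb there were 90 peaks of each list. The densest 100 kb bin on a chromosome held 127 ETS1 peaks (chromosome 1, 134200001 to 134300000) and 92 ETS2 peaks (chromosome 13, 12800001 to 12900000). As many as 90 peaks were found in 17 chromosome bins for ETS1 and in 1 for ETS2, and the median bin with any peak held 3.

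The peaks of this contig also took early places, in nearly the same order in both lists. Median places were 268 (0.347% of the rows, range 27 to 13079) for ETS1 and 116 (0.183%, range 27 to 33735) for ETS2. In the ETS1 list 65 of 93 and in the ETS2 list 88 of 93 were in the first 1% of the rows. The leading pair lay at chrUn_JH584304:60591-60767 (ETS1) and chrUn_JH584304:60585-60771 (ETS2), with centres 1 bp apart, and both stood at place 27. The 10 kb from 60001 to 70000 had the earliest median place, 95.5 among 10 ETS1 peaks and 44 among 9 ETS2 peaks. Over the 89 pairs, Spearman's rho between places was 0.99. This is a description, since the sites share a contig and a library.

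The 4 peaks of each list on JH584304 with no overlap all lay within 572 bp of a peak of the other list. Centres of the ETS1 peaks at chrUn_JH584304:2446-2622, chrUn_JH584304:59802-59978, chrUn_JH584304:11428-11604 and chrUn_JH584304:66345-66521 were 184, 266, 474 and 572 bp from the nearest ETS2 centre. For the ETS2 peaks at chrUn_JH584304:2625-2811, chrUn_JH584304:59531-59717, chrUn_JH584304:52693-52879 and chrUn_JH584304:18852-19038 the distances were 184, 266, 389 and 438 bp. The pairs 184 and 266 bp apart were the same pairs seen from either list. The pair 266 bp apart held places 35 and 28, second on the contig in both lists.

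**Figure D2:**
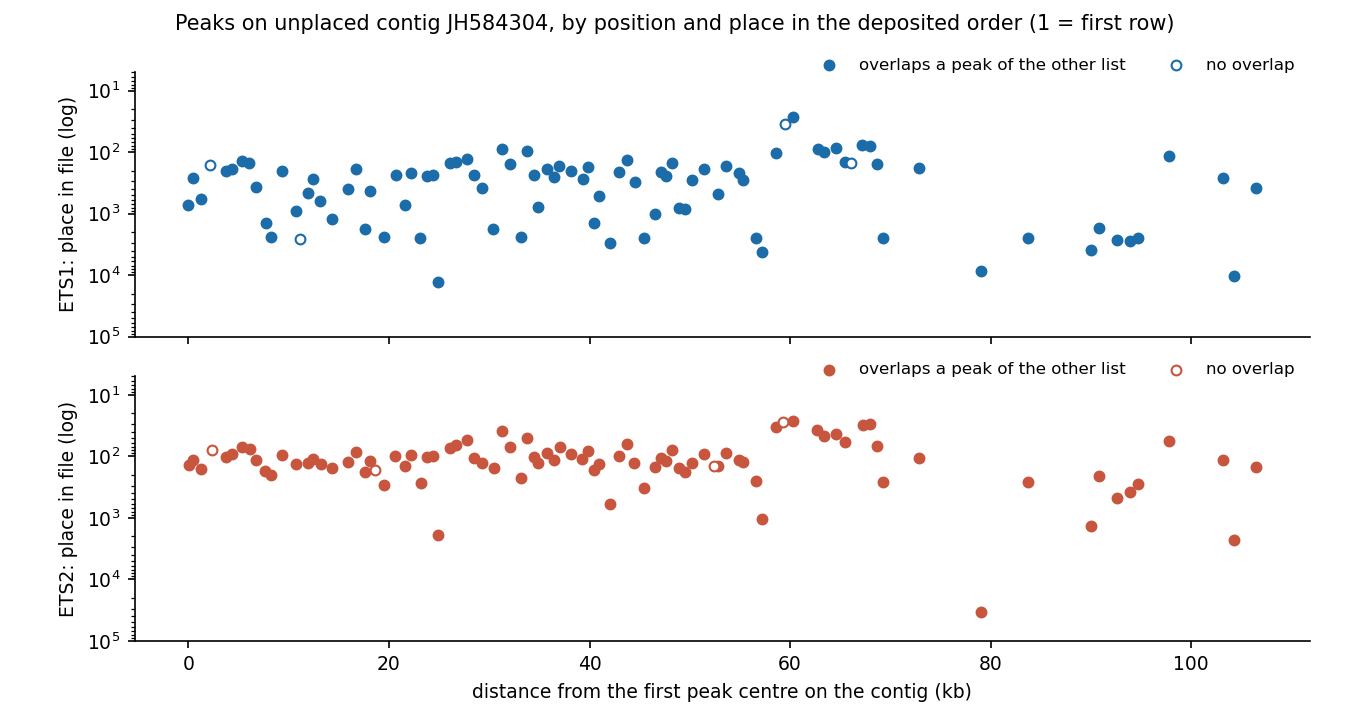
Peaks of the ETS1 list (top) and the ETS2 list (bottom) on contig JH584304, by the distance of their centre from the first peak centre on the contig (kb) and their place in the deposited file (log axis, early places at the top). Filled points overlap a peak of the other list; the 89 filled points of each panel follow nearly the same profile along the contig, with the earliest places near 60 kb.

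The other 15 unplaced contigs held 120 ETS1 and 89 ETS2 peaks, of which 71 in each list overlapped. These were 59.2% (50.2 to 67.5) of the ETS1 and 79.8% (70.3 to 86.8) of the ETS2 peaks there. Over all deposited peaks the shares were 16.1% and 19.6%. Within the first 10% of the rows, 59 of 72 (81.9%) and 55 of 62 (88.7%) overlapped, beside 37.3% and 47.1% of all peaks there. Median places were 6.25% of the rows for ETS1 and 3.66% for ETS2, later than on JH584304. The contigs differed from one another both in number and in how far the lists coincided.

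GL456392 carried the first of all these peaks in both files. The ETS1 peak at chrUn_GL456392:22658-22834 stood at place 9 and the ETS2 peak at chrUn_GL456392:22660-22846 at place 7, and they overlapped by 175 bp. The neighbouring peaks on either side were also early. ETS1 peaks beginning at 22143 and 23131 held places 102 and 76, and ETS2 peaks beginning at 22030 and 23105 held places 43 and 41. The remaining peaks of the contig came later, so that its medians were 3.99% of the rows for 16 ETS1 and 2.55% for 17 ETS2 peaks. Of these, 13 overlapped.

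GL456383 had 25 ETS1 and 20 ETS2 peaks, the second largest number, with 16 overlapping. Its leading peaks were chrUn_GL456383:27491-27667 (ETS1, place 2452) and chrUn_GL456383:27487-27673 (ETS2, place 263), with centres 1 bp apart. On GL456390 each of the 12 ETS2 peaks overlapped a different ETS1 peak, of 14 there. There the leading peaks were chrUn_GL456390:19450-19626 (place 1806) and chrUn_GL456390:19442-19628 (place 201). GL456396 had 14 ETS1 and 9 ETS2 peaks with 8 overlapping. Its first ETS1 peak, chrUn_GL456396:9831-10007, met an ETS2 peak centred 1 bp away, while the first ETS2 peak was chrUn_GL456396:11937-12123. GL456393 had 12 and 9 peaks with 7 overlapping. The leading ETS1 peak there, chrUn_GL456393:88-264, lay close to the start of the contig, and the leading ETS2 peak was chrUn_GL456393:5204-5390.

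Smaller numbers were found on the other unplaced contigs. GL456389 had 5 ETS1 and 3 ETS2 peaks, all 3 of the latter overlapping. Its first peaks, chrUn_GL456389:10561-10737 and chrUn_GL456389:10557-10743, stood at places 84 and 46, earlier than any peak of GL456383. GL456387 had 9 and 4 peaks with 3 overlapping, led by chrUn_GL456387:15186-15362 and chrUn_GL456387:15198-15384. GL456370, with 6 and 7 peaks and 4 overlapping, was the 1 unplaced contig besides GL456392 with more ETS2 than ETS1 peaks. It was led by chrUn_GL456370:11576-11752 (ETS1) and chrUn_GL456370:26233-26419 (ETS2). GL456378 had 4 and 3 peaks with 3 overlapping, led by chrUn_GL456378:5863-6039 and chrUn_GL456378:8736-8922. GL456367 (3 and 2 peaks) and GL456394 (3 and 2) each had 1 overlap. They were led by chrUn_GL456367:8346-8522 and chrUn_GL456394:23808-23984 in the ETS1 list, and by chrUn_GL456367:11750-11936 and chrUn_GL456394:23381-23567 in the ETS2 list. On GL456368 the single ETS1 peak, chrUn_GL456368:16896-17072, and the single ETS2 peak, chrUn_GL456368:461-647, were 16430 bp apart.

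All of the 18 sequences with an ETS2 peak also had an ETS1 peak, while 5 contigs with 10 peaks in all were in the ETS1 list alone. GL456359 held 5 of the 10. These lay between positions 18365 and 22318 at even distances of 913 to 973 bp, led by chrUn_GL456359:19338-19514 at place 2862. GL456366 held 2 peaks, the earlier placed being chrUn_GL456366:7803-7979, at place 69186. The others held 1 each, chrUn_GL456372:27916-28092 at place 16860, chrX_GL456233_random:159870-160046 at place 40615 and chr1_GL456221_random:128731-128907 at place 77260. The last of these was the latest of all 242 ETS1 peaks. The counts are small, and the ETS1 list is the longer one.

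**Figure D3:**
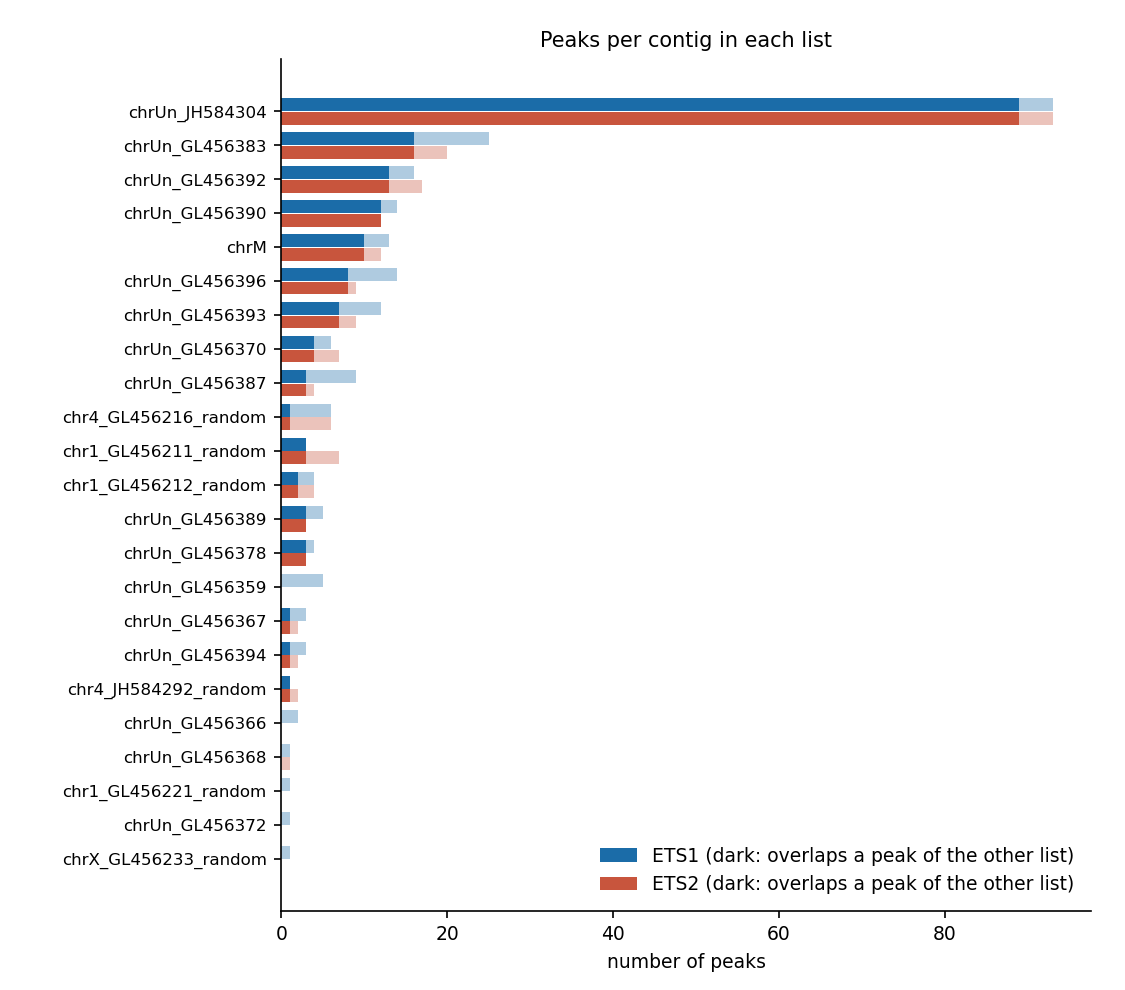
Number of peaks on each of the 23 sequences in the ETS1 list (blue) and the ETS2 list (red), with the overlapping part in the dark colour. JH584304 has 93 in each list, the next contig has 25 and 20, and 5 contigs have ETS1 bars only.

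The unlocalised contigs, 6 of them with 16 ETS1 and 19 ETS2 peaks, coincided least between the lists. Overlaps numbered 7, which is 43.8% (23.1 to 66.8) of the ETS1 and 36.8% (19.1 to 59.0) of the ETS2 peaks there. Over all deposited peaks the shares were 16.1% and 19.6%. Median places were late for ETS2, at 38.95% of the rows, and 6.58% for ETS1. Within the first 10% of the rows, 5 of 9 ETS1 and 3 of 5 ETS2 peaks overlapped, beside 37.3% and 47.1% of all peaks there. After it, 2 of 7 and 4 of 14 did, beside 13.8% and 16.6% of all peaks. On chr4_GL456216_random, 6 peaks of each list gave 1 overlap, between their leading peaks at 49132 to 49308 (ETS1, place 2442) and 49136 to 49322 (ETS2, place 253). The other 5 ETS1 peaks there began between 34679 and 52747, and the other 5 ETS2 peaks began between 15959 and 44224. On chr1_GL456211_random each of the 3 ETS1 peaks overlapped a different ETS2 peak, of 7 there. Its leading peaks, 175865 to 176041 and 175977 to 176163, shared 65 bp. The last of all 213 ETS2 peaks in the file also lay there, at 182537 to 182723 (place 63505). On chr1_GL456212_random 2 of 4 peaks in each list overlapped, the leading ones at 67816 to 67992 and 67907 to 68093 sharing 86 bp. On chr4_JH584292_random the only ETS1 peak, 14356 to 14532, overlapped 1 of 2 ETS2 peaks, and the ETS2 peak that came first in the file, 12914 to 13100, did not overlap.

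Across all 23 sequences, 177 ETS1 peaks overlapped 177 ETS2 peaks, one to one. This was 73.1% (67.2 to 78.3) of the 242 ETS1 and 83.1% (77.5 to 87.5) of the 213 ETS2 peaks. On chromosomes 1 to 19, X and Y the shares were 15.9% and 19.4%. Without JH584304, 88 pairs remained, and the shares were 59.1% of 149 ETS1 and 73.3% of 120 ETS2 peaks. On the chromosomes too, peaks early in either file overlapped more often, so the shares were also taken within stretches of the files.

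**Figure D4:**
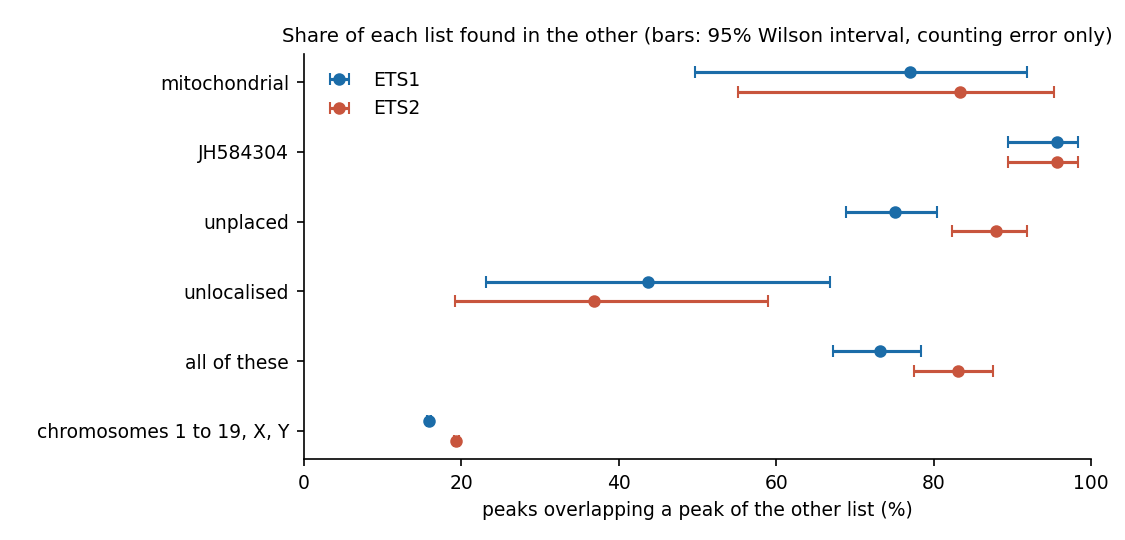
Percent of the ETS1 (blue) and ETS2 (red) peaks of each class that overlap a peak of the other list by at least 1 bp, with 95% Wilson intervals for counting error. The shares run from 36.8% on unlocalised contigs to 95.7% on JH584304, beside 15.9% and 19.4% on the chromosomes.

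Within the first 10% of the rows, 160 of 184 ETS1 peaks (87.0%, 81.3 to 91.1) and 156 of 171 ETS2 peaks (91.2%, 86.0 to 94.6) overlapped, where 37.3% and 47.1% of all peaks in that stretch did. In the first 1% it was 77 of 83 (92.8%) and 123 of 130 (94.6%), where 41.2% and 87.4% of all peaks did. In the first 100 rows the order was the other way, on few peaks. In those of the ETS1 file, 11 of 13 such peaks (84.6%) and 83 of 87 chromosome peaks (95.4%) overlapped, and in those of the ETS2 file 47 of 51 (92.2%) and 48 of 49 (98.0%). The ETS1 share for chromosomes also depended on chromosome 1, which supplied 699 of the first 1000 rows. In those 1000 rows 80 of 86 contig and mitochondrial peaks (93.0%) overlapped, beside 28.0% of 914 chromosome peaks, and 79.1% of 215 once chromosome 1 was left out. After the first 10% the numbers were 17 of 58 (29.3%) for ETS1 and 21 of 42 (50%) for ETS2, beside 13.8% and 16.5% of chromosome peaks.

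Overlapping pairs coincided closely in position. Their centres were a median of 8 bp apart, and 140 of 177 (79.1%) were within 50 bp. JH584304 supplied 89 of the 177 pairs and 81 of the 140. For chromosome pairs the median was 56 bp with 46.5% within 50 bp, and it was 46 bp in the first 10% of the rows. The closeness varied by class, with medians of 5 bp on JH584304, 21 bp on the other unplaced contigs, 23 bp on unlocalised contigs and 35 bp on chrM. No overlap was found for 65 ETS1 and 36 ETS2 peaks. Where the other list had any peak on the same contig, the median distance to its nearest centre was 611 bp and 624 bp, beside 6855 and 4799 bp for such peaks on chromosomes. These distances are bounded by the length of the contig, and the part of contig length in this contrast was not tested.

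Spacing within a list was short as well. Neighbouring centres were a median of 912 bp apart in the ETS1 list (219 distances, 376 to 59699 bp) and 1025 bp in the ETS2 list (195 distances, 379 to 42631 bp). On chromosomes the medians were 7290.5 and 7394.5 bp. Distances under 1 kb made up 57.5% and 49.2% here, and 13.7% and 14.6% on chromosomes. JH584304 supplied 92 of the distances in each list. On the unplaced and unlocalised contigs without it, medians were 973 bp (ETS1) and 1410 bp (ETS2), with 51.3% and 35.9% under 1 kb. The unlocalised contigs stood apart, with medians of 4078 bp over 10 distances and 6560 bp over 15. A distance cannot exceed the length of its contig, and the part of contig length in the short spacing was not tested.

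In the deposited order the peaks were concentrated early. The first rows of each file, up to 10% of its length, contained 184 of the 242 ETS1 (76.0%) and 171 of the 213 ETS2 peaks (80.3%), beside 10% of all peaks. Their median places were 3.59% and 0.463% of the rows, with ranges of 0.0116% to 99.95% and 0.0110% to 99.92%. The ETS2 median rested largely on JH584304: without that contig the medians were 5.37% and 3.10%. Of the first 100 rows, 13 of the ETS1 and 51 of the ETS2 file were on these sequences. The 51 comprised 12 mitochondrial peaks, 35 on JH584304 and 4 on other contigs. The 13 comprised 2, 8 and 3. By class, medians for ETS1 and ETS2 were 0.159% and 0.0323% on chrM, 0.347% and 0.183% on JH584304, 6.25% and 3.66% on the other unplaced contigs, and 6.58% and 38.95% on unlocalised contigs. Places in lists of different length were not compared as levels.

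The files showed a structure that bears on these places. Rows came in runs, within which chromosomes followed one another in the order 1 to 19, X, Y and M, then the other contigs by name, with positions ascending. A new run began wherever that order broke. The 77295 ETS1 rows formed 245 such runs and the 63556 ETS2 rows 163. Runs of 1000 rows or more numbered 12 and 11 and held 70886 and 58676 rows, with the largest at 15332 and 12106 rows. The value that the files are sorted on is not in their columns. By this definition contigs come last in a run, so the place of a contig peak is close to the latest that its run allows. The first 100 runs of either file had a median of 2 rows, too short to show such an order by themselves. In runs of 1000 rows or more lay 62 of 229 ETS1 and 43 of 201 ETS2 contig peaks. The 13 mitochondrial ETS1 and 12 ETS2 peaks were in runs of at most 5 and 4 rows, so their places were barely affected. Taking the first row of its run as the place of each peak gave medians of 3.56% and 0.452%. That choice can only move a place earlier.

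**Figure D5:**
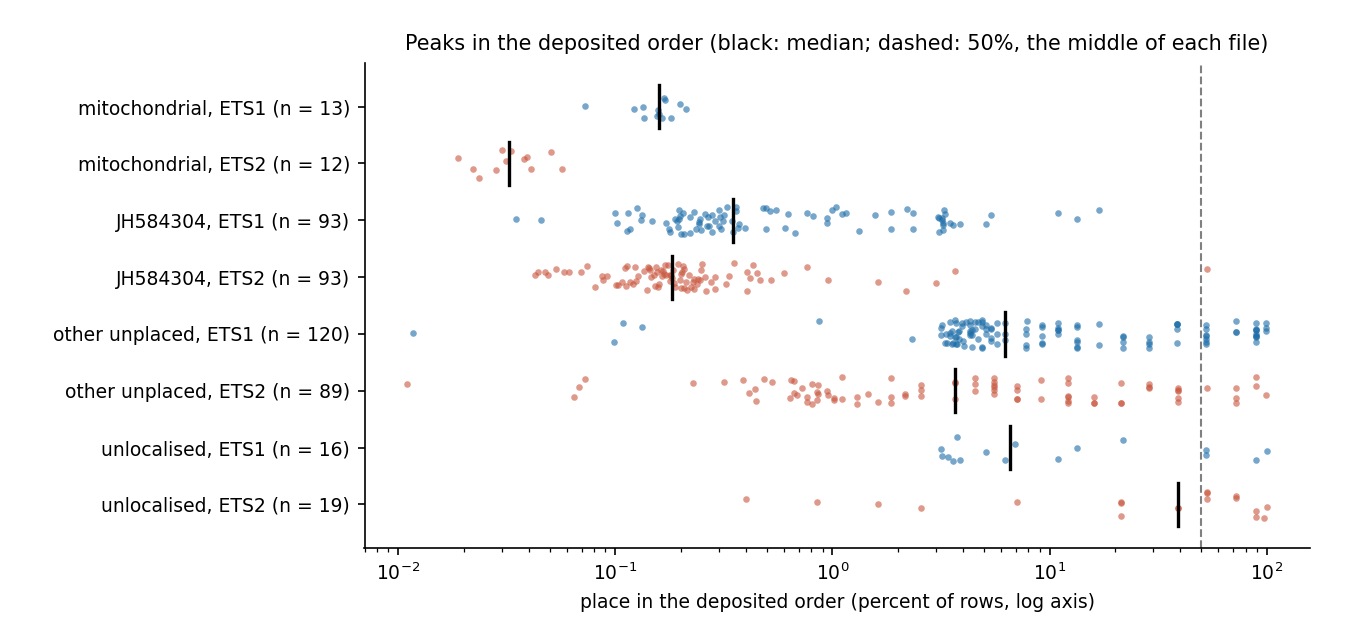
Place of each peak in its deposited file, as a percent of the rows on a log axis, by class and list, with the median as a black bar and the middle of the file as a dashed line. The mitochondrial peaks lie between 0.0189% and 0.212%, the unlocalised ones reach to the end of the files, and columns of points at late places are peaks at the end of 1 run.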

How the data were processed

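The tools named in the submitters' processing notes are Bowtie2, HOMER and CASAVA 1.8, and the builds are mm9 and mm10. The authors ran HOMER findPeaks (factor style), per the file headers, on tag directories labelled mm10, at a false discovery rate of 0.01, with no control directory and with 0 peaks removed by the local and clonal filters. The contig names are those of mm10. At most 7 (ETS1) and 6 (ETS2) tags per bp were considered, per the file headers, which bounds the count of a very deep peak. How reads that map to several places were treated is not given in the sources used here. The deposited score column holds 1 in every row and was not used; the deposited coordinates are peaks of fixed width, 177 bp (ETS1) and 187 bp (ETS2).

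Overlap was at least 1 bp. Mitochondrial genes came from a RefSeq table of GRCm38.p6 and are named as there; its 17 genes on contigs carry no contig name and were not used. Sequences of these regions were not used here. All shares have 95% Wilson intervals, which cover counting error only. No test was run, as there is 1 library per antibody. The regions and lists were chosen with earlier results of these data known. Peaks named are all mitochondrial ones, the first of each contig, and the first 3 and last of each list in file order; the choice of further named peaks followed a look at their values. Scripts used Python 3.11.15, pandas 2.3.3 and scipy 1.17.1, and were tested on simulated data.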

Additional observations from a re-analysis of the deposited data

How the results depend on the processing

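The overlap definition moved the shared percentages by more than their counting interval. For all 242 ETS1 and 213 ETS2 peaks they were 64.0% and 72.3% when at least 50% of the peak had to be covered, 65.7% and 74.6% for centres within 100 bp, and 81.4% and 90.6% for centres within 500 bp. For unplaced and unlocalised contigs together, main values of 72.9% and 83.1% became 63.8% and 72.1%, 65.5% and 74.6%, and 81.2% and 90.5%. In the first 50% of each file the ETS1 shares rose to 78.7% (all) and 78.8% (contigs), and in the first 10000 rows to 80.1% and 80.3%, whereas the ETS2 shares stayed within their interval. Leaving out JH584304, chosen after seeing the data, gave 59.1% and 73.3% (all) and 57.4% and 72.2% (contigs), with 149 and 120 peaks left in all and 136 and 108 on contigs. The median place then was 3.10% for ETS2, which moved, and 5.37% for ETS1, which stayed within 1.5 times its main value. Counted over chromosome rows alone, the mitochondrial median place was 0.131% and 0.0205%. These count as moved because they were set against the medians of all 242 and 213 peaks, 3.59% and 0.463%, a different set. Over all rows the mitochondrial medians were 0.159% and 0.0323%. In all, 39 of 66 alternatives stayed within the counting interval, or within 1.5 times the main value for counts and medians. They include each of the 10 alternatives for the mitochondrial shares, which ranged from 69.2% to 84.6% (ETS1) and from 75% to 91.7% (ETS2). The first 50% and the first 10000 rows hold every mitochondrial peak of either list. Those settings could not change the mitochondrial shares or counts, so they say nothing about stability, though counted among the 39. The other settings for these shares were set against wide intervals, 49.7 to 91.8 (ETS1) and 55.2 to 95.3 (ETS2). No paired analysis was possible because each antibody has 1 library and no result comes from a test. Depth per peak was not analysed, so the lists cannot show how far a peak lies above the threshold of 30 tags.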
